A study of Homo sapiens with 4 samples.

Results

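Glutathione S-transferases (GSTs) couple glutathione (GSH) to reactive compounds, and 10 genes of this enzyme group were examined in SNU638 cells, a human gastric cancer line in established culture. The genes were taken by name and by no rule on measured values, but with earlier results of these data known. They were GSTM2, GSTM3, GSTM4, GSTP1, GSTA4, GSTO1, GSTZ1, GSTK1, MGST1 and MGST2, out of 19775 genes with a probe set annotated to 1 gene symbol. They were measured by 18 probe sets, and 0 further probe sets listed any of them among several symbols. Cells had been infected with lentivirus carrying an shRNA in the pLKO.1 vector, either scrambled (scramble, 2 arrays) or against ACTL6A (sh-ACTL6A, 2 arrays), and kept under puromycin for some days. ACTL6A is an actin-related subunit of BAF and other chromatin complexes. Both groups were pools of infected cells of 1 line, the labels do not tell which hairpin each sh-ACTL6A array carried, and the number of arrays limits the precision. Nothing in the labels ties the arrays to separate cultures, so p-values, standard errors and confidence intervals here describe array-to-array spread, which may be technical.

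The cytosolic transferases fall into classes named by Greek letters, each with its own substrates. The attached GSH makes a compound more soluble, after which ABC transporters carry it out of the cell and the mercapturate pathway trims it. The microsomal enzymes MGST1 and MGST2 belong to a separate membrane protein family, and several transferases also reduce lipid hydroperoxides. Many GST genes are known targets of NRF2, a transcription factor that binds the antioxidant response element (ARE), and the study asked how ACTL6A acts on GSH metabolism together with NRF2. In a cultured population, a lower signal from fewer expressing cells and from less RNA per cell cannot be told apart.

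The ARE core (TGACNNNGC, searched on both strands) was looked for in RefSeq promoters of GRCh38.p14 that run from 250 bases before to 50 bases after a transcription start. The table held 11 such windows for 9 of the genes, 3 of them for MGST1, and 4 of the 11 windows held 5 cores, against 13.35% of all 35116 windows. The windows of GSTM2, GSTM3, GSTM4, GSTZ1 and GSTK1 held no match to these letters. The matches are printed because the study's question turned on NRF2, with the core in capitals and 8 flanking bases in lower case, read along the gene's strand.
GSTP1: cggcgccgTGACTCAGCactggggc
GSTA4: gggaccgcTGACCTGGCgctttgtg
GSTO1, distal: cggagggaTGACTGAGCatttataa
GSTO1, proximal: agatgcttTGACACAGCcccttaag
MGST1: ggacatcgTGACAAAGCaaattgtc

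The GSTP1 core lay 66 to 58 bases before the start (chr11:67583738-67583762 for the printed stretch, + strand) and was the 1 match that overlapped TGACTCA, the AP-1 site, which 4.949% of all windows held. The GSTA4 core ended at the base before the start (chr6:52995277-52995301, - strand), and the GSTO1 cores began 226 and 161 bases before it (chr10:104254658-104254682 and chr10:104254723-104254747, + strand). The MGST1 core lay at bases 31 to 39 counted from 1 of the 3 starts (chr12:16347137-16347161, + strand). A match of letters is a description of the window and not a measured binding site.

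The deposited values were log2 signals. A gene was represented by its brightest probe set and tested if the mean reached 5.63, the median of all non-control probe sets, which 12286 genes did. ACTL6A, the targeted gene, read 11.92 and 11.82 in scramble against 10.16 and 10.32 on the sh-ACTL6A arrays, and it fell by 1.63 on the log2 scale (SE 0.14, limma adjusted p = 0.0408). That call was lost under 5 of the 10 alternatives with all arrays (quantile normalisation, for example, gave a limma adjusted p of 0.0519) and without either scramble array (0.9996 without replicate 1 and 0.567 without replicate 2), while all 14 differences stayed between -1.71 and -1.55. It was the 1 gene of the whole table past the threshold of 0.05 (0.00814% of genes tested). Of 8 epithelial markers, 7 lay above the signal threshold, CLDN4 being below. Of 11 gastrointestinal lineage markers 4 did so (TFF3, MUC5AC, GATA6 and SOX2), while TFF1, TFF2, MUC6, CLDN18, GKN1, CDX1 and CDX2 were below it. The log2 of the summed epithelial signal was 15.64 and 15.86 in scramble and 15.38 and 15.59 in sh-ACTL6A. That of the gastrointestinal list was 11.49 and 11.21 against 11.61 and 11.58. Neither overlapped between groups, and their part in the results below was not tested. Among markers of other cells, 0 of 4 measured leukocyte genes and 0 of 2 hepatocyte genes were above the threshold, and 3 of 6 fibroblast and endothelial genes were (COL1A1, DCN and PECAM1), with a summed signal of 9.41 and 8.98 against 9.20 and 9.02. The summed leukocyte signal was 6.62 and 6.42 against 6.31 and 6.62, and the hepatocyte signal 5.63 and 5.45 against 5.70 and 5.57, with overlapping groups for all 3 lists.

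All 10 GST genes were above the signal threshold in SNU638 cells, in 7 classes, and none differed between the groups past the test's threshold. GSTP1, GSTO1, GSTM3, MGST1 and GSTK1 had mean log2 signals of 10.54 to 13.27, and GSTM2, GSTM4, GSTA4, GSTZ1 and MGST2 had means of 6.89 to 8.53. Of the 18 probe sets, 15 had a mean above the threshold, and the same number read above it on each array. The 3 below were 1 of 2 for GSTA4 and 2 of 5 for MGST1. Signals of different probe sets are not on one scale, so they do not show which transcript was the most abundant. The threshold is a median of signals and not a call of presence. GSTM2 and GSTM4 were read only by probe sets that may not be specific to 1 gene, as described below.

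**Figure D1:**
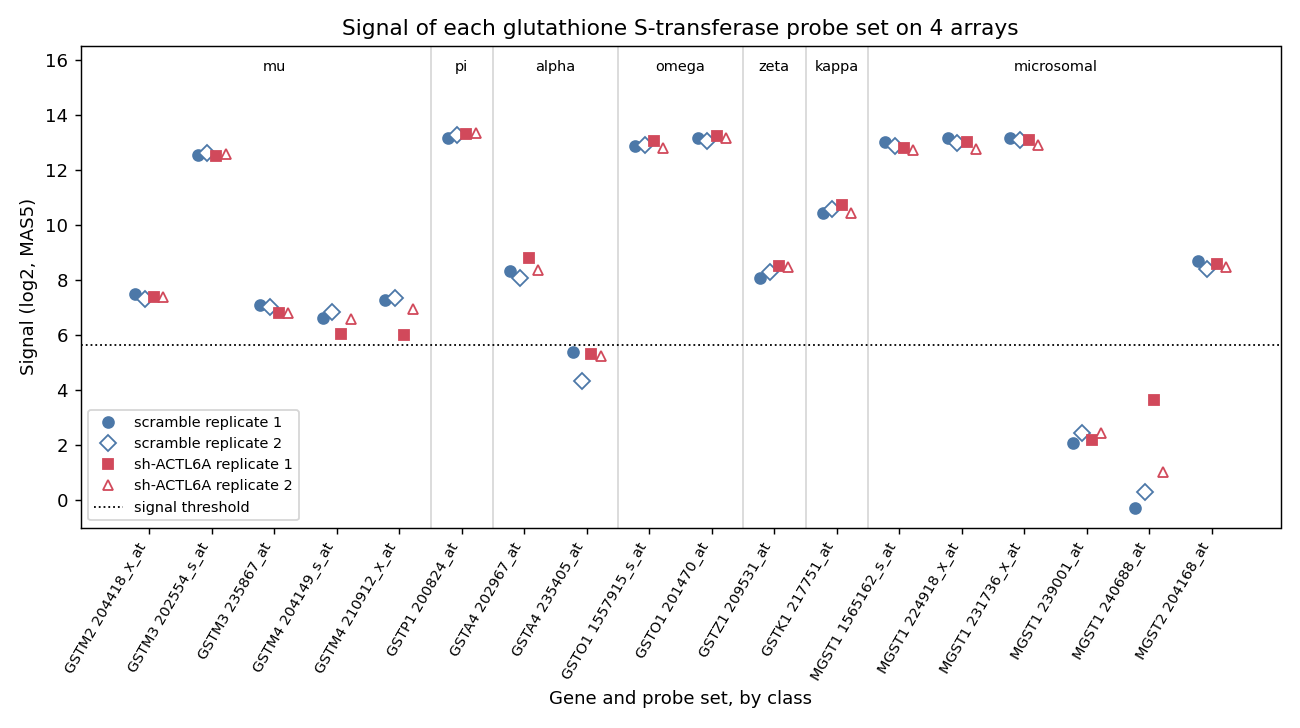
Log2 signal (vertical axis) of each of the 18 probe sets (horizontal axis, by gene and class) on the 2 scramble arrays (blue) and the 2 sh-ACTL6A arrays (red), with the threshold of 5.63 as a dotted line. The groups lie close together for the bright probe sets, GSTM4 reads lowest on sh-ACTL6A replicate 1 in both of its probe sets, and the 3 probe sets below the line belong to GSTA4 and MGST1.

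Differences are given as sh-ACTL6A minus scramble. With limma, 0 of the 10 genes were called higher and 0 lower (adjusted p 0.908 to 0.998), where 0.00814% of all genes were called. At an unadjusted p under 0.05 the count was also 0 of 10, beside 5.5% of all genes tested. The methods' t-test likewise gave 0 of 10 at an unadjusted p under 0.05, where 396 of all 12286 genes were higher and 276 lower, and it called 0 of all genes after Benjamini-Hochberg adjustment. The median difference over the 10 genes was 0.03, with 5 above 0 and 5 below, and over all genes tested it was 0.01. Both sh-ACTL6A arrays read above both scramble arrays for GSTP1, GSTA4 and GSTZ1, 3 of 10 genes beside 19.3% of all genes. Both read below for GSTM4 and MGST1, 2 of 10 beside 15.4% of all genes.

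The 5 brighter genes had standard errors of 0.09 to 0.16. As folds of sh-ACTL6A over scramble, the bounds of their 95% confidence intervals lay between 0.767 and 1.37. For the 5 dimmer genes the standard errors were 0.19 to 0.36 and the bounds lay between 0.317 and 1.86. The lower bound of 0.317 belonged to GSTM4. Leaving out 1 array turned the sign of some of the small differences. Among the brighter genes, GSTK1 was at -0.07 without sh-ACTL6A replicate 1 and GSTM3 at 0.00574 without scramble replicate 2. The difference of GSTP1, GSTO1, GSTZ1 or MGST1 changed in size with no change of sign. Without scramble replicate 1 and without scramble replicate 2, that of GSTP1 was 0.05 and 0.17, that of GSTO1 0.12 and 0.03 and that of GSTZ1 0.20 and 0.41. That of MGST1 was -0.23 without sh-ACTL6A replicate 1 and -0.04 without sh-ACTL6A replicate 2, and that of GSTO1 was 0.04 without sh-ACTL6A replicate 1.

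**Figure D2:**
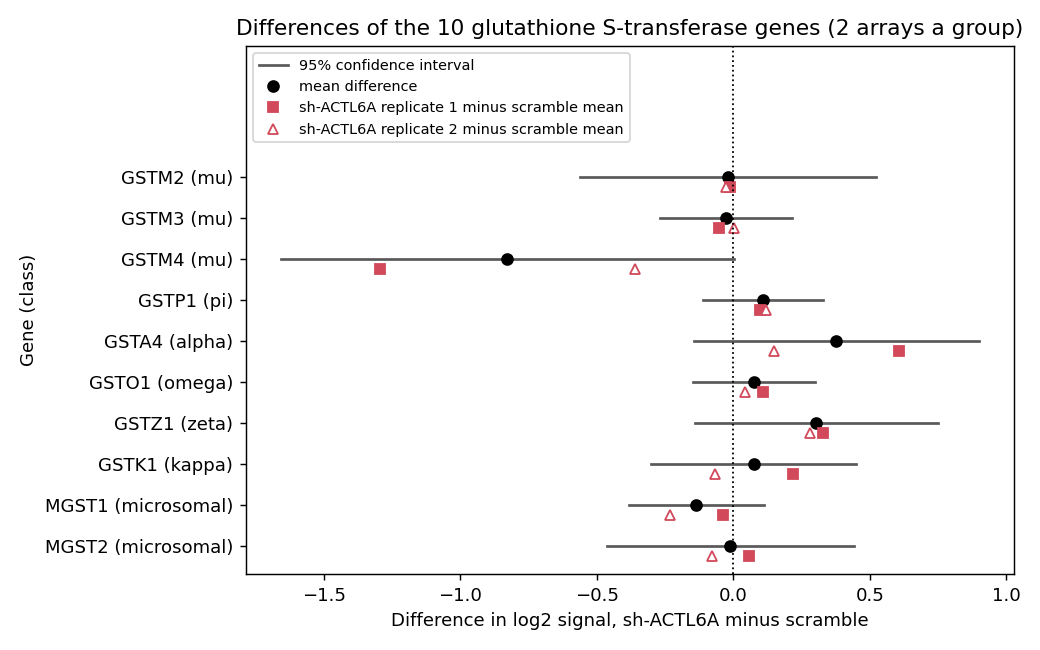
Difference in log2 signal, sh-ACTL6A minus scramble (horizontal axis), for each of the 10 genes (vertical axis, class in brackets), with the mean as a black point, the 95% confidence interval of the limma fit as a line and the sh-ACTL6A arrays, less the mean of scramble, in red (n = 2 arrays a group). All 10 intervals hold 0, and GSTM4 has the lowest mean, -0.83, and the widest interval.

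The mu class held the lowest difference of the 10 genes. GSTM4, which conjugates GSH to electrophiles as the other mu enzymes do, read 7.27 and 7.34 in scramble cells and 6.01 and 6.94 in sh-ACTL6A cells (probe set 210912_x_at). Both sh-ACTL6A arrays were below both scramble arrays, but they lay 1.29 and 0.36 below the scramble mean and so were further from each other than the nearer one was from the controls. The difference was -0.83 ± 0.36 (SE, 95% confidence interval -1.66 to 0.002), a fold of 0.563, with a limma unadjusted p of 0.0505 and an adjusted p of 0.908. Of all genes tested, 0.985% had a difference at or below this one, and of all non-control probe sets, dim ones included, 12.0% did. Without sh-ACTL6A replicate 1 it was -0.36, and without sh-ACTL6A replicate 2 it was -1.29 (limma adjusted p = 0.662 and 0.0681), in fits where the lone array is assumed to vary like the scramble pair. The other GSTM4 probe set, 204149_s_at, read 6.62 and 6.85 against 6.02 and 6.59. Its groups did not overlap either, and the same sh-ACTL6A array was the lower one, with a difference of -0.42 ± 0.36 (SE).

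GSTM2 read 7.48 and 7.32 in scramble cells and 7.39 and 7.38 after ACTL6A knockdown. The sh-ACTL6A values lay between the scramble values, with a difference of -0.02 ± 0.23 (SE). GSTM3, a mu enzyme best known from brain and testis, read 12.54 and 12.61 against 12.52 and 12.58, so the groups overlapped, and differed by -0.03 ± 0.10 (SE, 95% confidence interval -0.27 to 0.22). A second and dimmer GSTM3 probe set, 235867_at, read 7.09 and 7.01 against 6.81 and 6.80 and did not overlap. It was lower by a difference of -0.24 ± 0.28 (SE) with an adjusted p of 0.961 in the limma fit of single probe sets, so the GSTM3 probe sets differed in whether their groups overlapped, and neither passed the test.

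Mu genes are close relatives that lie side by side in a stretch of chromosome 1 (chr1:109656099-109741038, GRCh38.p14) in the order GSTM4, GSTM2, GSTM1, GSTM5 and GSTM3. Probe sets whose names end in _s_at match several transcripts, and those ending in _x_at hold probes that can also bind other sequences, so the single symbol on them does not show that only that gene was read. Of the 5 mu class probe sets of GSTM2, GSTM3 and GSTM4, 4 were of these kinds. The probe sequences were not used here. The remaining mu genes were measured by 204550_x_at and 215333_x_at for GSTM1 and by 205752_s_at for GSTM5. GSTM1 read 6.87 and 7.11 against 7.27 and 6.65 in the first and 7.04 and 7.33 against 7.14 and 6.78 in the second. In both, sh-ACTL6A replicate 2 was the lowest array and replicate 1 was not below the scramble arrays, whereas both GSTM4 probe sets were lowest on replicate 1. GSTM5 read 6.37 and 6.19 against 6.17 and 6.67, with its highest value on sh-ACTL6A replicate 2. The differences were -0.03 ± 0.33 and -0.22 ± 0.29 (SE) for GSTM1 and 0.14 ± 0.37 (SE) for GSTM5, with groups that overlapped. The part of shared signal in the GSTM4 values was not tested.

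**Figure D3:**
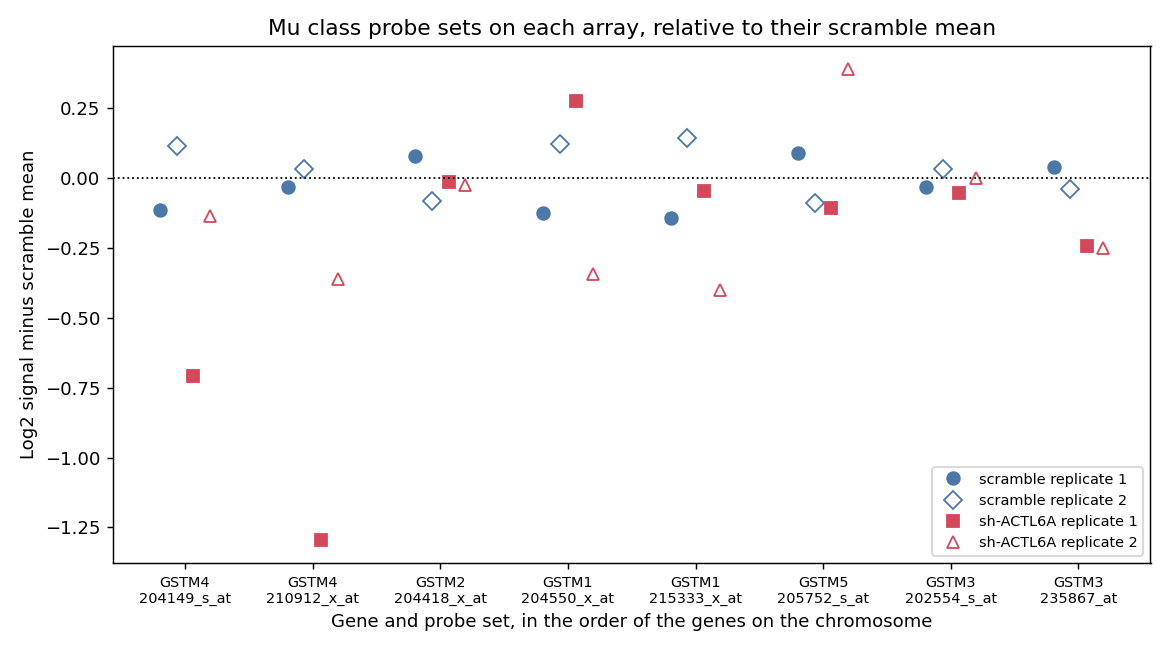
Log2 signal minus the scramble mean of the same probe set (vertical axis) for the 8 mu class probe sets (horizontal axis, in chromosome order), with the 2 scramble arrays in blue and the 2 sh-ACTL6A arrays in red. Both GSTM4 probe sets are lowest on sh-ACTL6A replicate 1, at -0.71 and -1.29, while both GSTM1 probe sets are lowest on sh-ACTL6A replicate 2, at -0.34 and -0.40.

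The pi, alpha, omega, zeta and kappa genes had differences from 0.07 to 0.38, all 5 above 0 and none called. GSTP1, the pi class enzyme and the most studied GST in epithelial tumours, read 13.15 and 13.28 in scramble cells and 13.31 and 13.33 in sh-ACTL6A cells. The groups did not overlap, although the gap between them was smaller than that between the scramble arrays. The difference was 0.11 ± 0.09 (SE, 95% confidence interval -0.11 to 0.33, limma adjusted p = 0.941). As a fold the interval ran from 0.925 to 1.26.

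GSTA4, the alpha enzyme that conjugates 4-hydroxynonenal, an aldehyde formed when lipids are peroxidised, read 8.31 and 8.08 in scramble and 8.80 and 8.35 in sh-ACTL6A. Both sh-ACTL6A arrays were above, with the nearer one only just so, and the difference was 0.38 ± 0.22 (SE, 95% confidence interval -0.14 to 0.90, limma adjusted p = 0.918). This was the highest of the 10 differences. Without sh-ACTL6A replicate 1 it was 0.15, and without sh-ACTL6A replicate 2 it was 0.60. The second GSTA4 probe set, 235405_at, lay below the threshold and read 5.39 and 4.31 against 5.32 and 5.23, with overlapping groups and a difference of 0.42 ± 0.61 (SE).

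GSTZ1, the zeta enzyme, also known as maleylacetoacetate isomerase of tyrosine breakdown, read 8.07 and 8.28 against 8.50 and 8.45. Here the sh-ACTL6A arrays were close together and both above scramble, with a difference of 0.30 ± 0.19 (SE, 95% confidence interval -0.14 to 0.75, limma adjusted p = 0.919). GSTO1, an omega enzyme that reduces dehydroascorbate and removes GSH from proteins, read 13.15 and 13.06 against 13.21 and 13.15. Its groups overlapped, and its difference was 0.08 ± 0.10 (SE). The other GSTO1 probe set, 1557915_s_at, read 12.88 and 12.90 against 13.05 and 12.81, with the sh-ACTL6A arrays on either side of scramble and a difference of 0.03 ± 0.12 (SE). GSTK1, the kappa enzyme of mitochondria and peroxisomes, read 10.41 and 10.59 against 10.72 and 10.43. Its sh-ACTL6A arrays lay on opposite sides, at 0.22 and -0.07 from the scramble mean, and the difference was 0.07 ± 0.16 (SE).

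MGST1, a membrane enzyme that conjugates GSH and reduces lipid hydroperoxides, had 3 bright probe sets, all slightly lower in sh-ACTL6A. The brightest, 231736_x_at, read 13.17 and 13.10 in scramble cells and 13.09 and 12.90 in sh-ACTL6A cells. The groups were separated by a gap smaller than the spread within either, with a difference of -0.14 ± 0.11 (SE, 95% confidence interval -0.38 to 0.11, limma adjusted p = 0.941). Probe set 1565162_s_at read 13.03 and 12.85 against 12.81 and 12.72 and did not overlap, while 224918_x_at read 13.15 and 12.97 against 13.01 and 12.75 and did. These differed by -0.18 ± 0.11 and -0.18 ± 0.13 (SE). The 3 probe sets are annotated to the same gene and were read on the same arrays, so their shared direction counts once.

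The other MGST1 probe sets were far below the threshold and did not follow the bright ones. Probe set 239001_at read 2.09 and 2.44 against 2.19 and 2.42, with overlapping groups. Probe set 240688_at read -0.28 and 0.31 in scramble and 3.62 and 1.04 in sh-ACTL6A, a difference of 2.31 ± 1.10 (SE, adjusted p = 0.960 in the limma fit of single probe sets) that rested mostly on replicate 1. Averaging all 5 probe sets turned the MGST1 difference to 0.37, while among the 5 only the 2 dim ones differed above 0. MGST2, a relative that also makes leukotriene C4, read 8.68 and 8.39 against 8.59 and 8.46. The sh-ACTL6A values lay between those of scramble, with a difference of -0.01 ± 0.19 (SE).

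Tested as 18 separate probe sets among 54613, 0 were called (limma adjusted p 0.960 to 0.999), and 0% of all probe sets were. At an unadjusted p under 0.05 there were also 0 of 18, beside 5.01% of all probe sets. The sh-ACTL6A arrays were both above scramble for 4 probe sets (16.7% of all) and both below for 5 (17.1% of all). Of the 10 probe sets of the plain _at kind, 8 differed above 0 and 2 below. Of the 4 _s_at sets 1 was above and 3 below, and all 4 _x_at sets, which read GSTM2, GSTM4 and MGST1, were below. Within a gene read by more than 1 kind, the GSTM3 difference was -0.03 in the _s_at and -0.24 in the _at set, that of GSTO1 was 0.03 and 0.08, and the dim _at sets of MGST1 were above 0 where its _s_at and _x_at sets were below.

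By class, the 3 mu and 2 microsomal genes all differed below 0 and the 5 others above, but relatives outside the 10 went both ways. MGST3, a further microsomal enzyme, differed by 0.07 ± 0.10 (SE) and GSTM5 of the mu class by 0.14, both above 0. GSTO2 of the omega class was at -0.15 and GSTA1 of the alpha class at -0.19 ± 0.29 (SE). That GSTA1 value came from 215766_at, with a mean of 7.16, while its other probe set, 203924_at, was far below the threshold at 1.58. GSTM1 lay below 0, like the 3 mu genes. The grouping was noticed after the values were seen and gets no test. With median centring of the arrays 3 of the 5 mu and microsomal genes turned above 0, and with quantile normalisation 1 did. Median centring raised every difference by the same amount, the median over all genes tested going from 0.01 to 0.04. The 5 other genes, already above 0, could therefore not turn under it. They also kept their sign under quantile normalisation. The differences that turned were GSTM2, GSTM3 and MGST2, all under 0.03 in size.

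Other transferases and relatives of the microsomal family were read alongside. Of 17 listed genes 14 had a probe set and 9 were tested, with 0 called, 3 above 0 and 6 below, and a median of -0.15. The smallest unadjusted p values in this list belonged to PTGES, a prostaglandin E synthase, GSTO2 and GSTT2. PTGES read 6.68 and 6.56 against 5.96 and 5.92 and differed by -0.68 ± 0.32 (SE, limma adjusted p = 0.917). Another PTGES probe set, 207388_s_at, had a mean of 4.07, below the threshold, and went the opposite way. On it scramble stood at 2.84 and 3.67 and sh-ACTL6A at 3.82 and 5.93. The sh-ACTL6A mean was thus 1.62 log2 units higher (SE 0.94), so the PTGES direction depended on the probe set. GSTO2, the second omega enzyme, read 11.14 and 11.10 against 11.16 and 10.79, with overlapping groups and a difference of -0.15 ± 0.16 (SE). GSTT2, of the theta class, read 8.45 and 8.40 against 8.25 and 8.28 and differed by -0.16 ± 0.18 (SE). The 5 genes with a probe set that were not tested, all below the signal threshold, were GSTA3, GSTT1, GSTT4, HPGDS and LTC4S.

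Among genes of the mercapturate pathway and conjugate export, 13 of 25 were tested, with 0 called, 7 above 0 and 6 below (median 0.01). ABCC3, an exporter of glutathione and glucuronide conjugates, read 6.79 and 6.67 against 5.52 and 5.08, both sh-ACTL6A arrays lying below scramble by more than either group's spread. Its difference of -1.43 ± 0.37 (SE) did not pass (limma adjusted p = 0.630). ABCC5, an exporter of organic anions, differed by 0.48 ± 0.18 (SE), and OPLAH, the 5-oxoprolinase that returns glutamate from the GSH cycle, by -0.31 ± 0.20 (SE).

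Of 14 genes of GSH and NADPH supply, 12 were tested, with 0 called, 5 above 0 and 7 below (median -0.04). IDH2, a mitochondrial source of NADPH, read 9.93 and 10.23 against 10.53 and 10.44 and differed by 0.41 ± 0.16 (SE, limma adjusted p = 0.875). TXNRD1, a thioredoxin reductase, differed by -0.16 ± 0.08 (SE) and CTH, which makes cysteine from cystathionine, by 0.32 ± 0.18 (SE). For NRF2 and its partners 12 of 13 genes were tested, with 0 called, 4 above 0 and 8 below (median -0.10). BACH1, a repressor that competes with NRF2 at AREs, read 10.13 and 9.88 against 9.65 and 9.65 and differed by -0.36 ± 0.16 (SE, limma adjusted p = 0.917). SRXN1 and NQO1, both known NRF2 targets, differed by -0.33 ± 0.16 and -0.21 ± 0.10 (SE). HMOX1, of the same list, went the other way at 0.23 ± 0.19 (SE). The study also names GCLC, GCLM and SLC7A11 as NRF2 targets. Their differences were -0.05 ± 0.13, 0.06 ± 0.14 and -0.35 ± 0.22 (SE). For HMOX1 and each of these the groups overlapped.

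A control for RNA integrity followed the replicate number and not the group. For ACTB, the 3′ probe set was brighter than the 5′ probe set by 1.63 and 1.21 log2 units on replicate 1 of scramble and sh-ACTL6A, and by 0.78 on both replicate 2 arrays. The part of this in the larger GSTM4 and GSTA4 differences on sh-ACTL6A replicate 1 was not tested. Across the 10 genes the root mean square difference between the scramble arrays was 0.165 log2 units and that between the sh-ACTL6A arrays 0.35. Arrays of different groups differed by 0.185 to 0.493, with both values over 0.4 involving sh-ACTL6A replicate 1. In both, GSTM4 differed most of the 10 genes, reading 6.01 on that array against 7.27 and 7.34 in scramble. Over all genes that array did not stand apart, with 0.366 within scramble, 0.441 within sh-ACTL6A and 0.392 to 0.437 between groups, the last involving sh-ACTL6A replicate 2.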

How the data were processed

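RNA from SNU638 cells was hybridised as biotin-labelled cRNA to 4 single-colour Affymetrix arrays. The authors deposited 1 log2 signal per array for each of 54675 probe sets; the submitters' processing notes name MAS5 (version not given in the sources used here), which summarises and scales each array separately, and the 2% trimmed mean of linear signal was 500.0 on every array. Depth does not apply to arrays. Dim MAS5 signals are noisy, so their differences are imprecise. Groups came from the sample titles. Symbols came from the platform's probe table, in which 41091 of 54613 non-control probe sets had 1 symbol.

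The values were used as deposited. The brightest probe set stood for a gene, and genes with a mean at or above the 50th percentile of non-control probe sets were fitted with limma 3.58.1 in R 4.3.3 (lmFit, eBayes with trend, 2-sided), with Benjamini-Hochberg adjustment over all 12286 genes and a threshold of 0.05. A second fit took every non-control probe set. The fits were tested on simulated data. The methods' t-test is the study's unpaired test on the same values. An exact permutation of 2 against 2 arrays cannot go below p = 0.333 and was not used. All members, ACTL6A and at most 3 genes per list by the smallest unadjusted p were named. GSTM1, GSTM5, MGST3 and GSTA1 were added as class relatives. HMOX1, GCLC, GCLM and SLC7A11 were added beside SRXN1 and NQO1. The members and lists were chosen with earlier results of these data known. Protein sequences were not used here.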

Additional observations from a re-analysis of the deposited data

How the results depend on the processing

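Under the 10 alternatives with all arrays and with each of the 4 arrays left out, 0 of the 10 GST genes were called, and the lowest adjusted p of any was 0.0681 (GSTM4 without sh-ACTL6A replicate 2). Of 135 recomputed member differences 123 kept their direction. The other 12 turned sign, all for genes that differed by less than 0.14. Median centring gave 0.0125 for GSTM2, 0.00532 for GSTM3 and 0.0211 for MGST2, quantile normalisation gave 0.00505 for GSTM3, and the mean of all probe sets gave 0.37 for MGST1. With 1 array left out, GSTM2 ran from -0.10 to 0.0612, GSTM3 from -0.0590 to 0.00574, GSTK1 from -0.0677 to 0.22 and MGST2 from -0.15 to 0.13. Likewise, probe set 235405_at of GSTA4 ran from -0.12 to 0.96, 1557915_s_at of GSTO1 from -0.0840 to 0.15 and 239001_at of MGST1 from -0.14 to 0.21. The ACTL6A difference was no longer past the threshold after quantile normalisation (-1.64), and, at -1.63, with no filter, with every probe set tested, without the trend and by the methods' t-test. In those settings 0 genes of the whole table were called. With 1 array left out it ran from -1.71 to -1.55 and was not past the threshold without scramble replicate 1 or without scramble replicate 2, with 0 to 401 genes called in all. With the replicate number as a block (replicate block), 2 genes were called in all and 0 members, and GSTM4 had an adjusted p of 0.618. The main fit was unpaired because the study's t-test was. Deviations of same-numbered arrays from their group means correlated at 0.0565 across genes, although the ACTB control followed the replicate number. The labels do not tell whether same-numbered arrays were pairs. The stricter filter gave no value for the 5 dimmer genes.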
